A study of Homo sapiens with 18 samples.

Results

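The Wnt ligands, the Frizzled receptors and the secreted Wnt antagonists of the SFRP, FRZB and Dickkopf kind were followed while human embryonic stem (ES) cells formed neuroepithelium. Members were taken by gene symbol from the array's annotation: the WNT, FZD and SFRP families with FRZB, DKK1, DKK3 and DKK4. This gave 34 of the 19775 genes that had a probe set naming them alone: 17 Wnt ligands, 9 Frizzled receptors and 8 antagonists. WNT3 and FZD8 share their probe sets with another gene and were not analysed. H9, an established human ES cell line, was profiled on 1-colour Affymetrix expression arrays, with 18 arrays in 6 groups of 3 RNA pools. The groups were undifferentiated ES cells, embryoid bodies (EBs, floating aggregates) at day 6, neuroepithelial cells at day 10 given bFGF from day 6, neuroepithelial cells at day 10 without it, neuroepithelial cells at day 17 given bFGF from day 6, and neuroepithelial cells at day 17 without it. All are cells of this 1 line, and each array holds pooled RNA of a culture that may mix cell types. bFGF (FGF2) is basic fibroblast growth factor, and the labels give it as 20 ug/ml at day 10 and 20 ng/ml at day 17. Which unit applied at day 10 is not settled by the labels.

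Wnts are secreted lipid-modified glycoproteins that bind the cysteine-rich domain of a Frizzled receptor, together with the coreceptors LRP5 and LRP6 when the signal runs through beta-catenin. SFRP proteins and FRZB carry a Frizzled-like cysteine-rich domain and bind Wnts outside the cell, whereas DKK1 and DKK4 bind LRP5 and LRP6. In vertebrate embryos low Wnt activity at the front of the neural plate goes with forebrain and eye identity, and Wnts made at the dorsal midline later pattern the forebrain and spinal cord.

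Each value below is the array signal, a linear intensity that the authors had scaled to 1 level per array, and log2 changes are on the log2(signal + 16) scale with their standard error. That scale understates the changes of genes with low signal, and signals of different genes are not set against each other because probe sets differ in sensitivity. Tests are moderated tests of limma over all genes, called at a Benjamini-Hochberg adjusted p under 0.05. Marker genes followed the labels: NANOG, a pluripotency factor, averaged 3203 ± 382 in ES cells, 291 ± 69.2 at day 6, 20.9 ± 10.2 at untreated day 10 and 21.0 ± 14.8 at untreated day 17 (SD, n = 3 each). SOX1, a neural progenitor factor, averaged 11.8 ± 9.49, 56.2 ± 6.15, 612 ± 184 and 1551 ± 353 in the same 4 groups (SD, n = 3 each). Pool 2 of the 4 neuroepithelial groups stood apart, with median array signals of 48.7 to 50.8, where the remaining 14 arrays had 25.2 to 32.7. Pool 2 of every group also had the higher ACTB 3' to 5' ratio, a sign of RNA quality, at 2.27 to 2.64 beside 1.17 to 1.75 on the other arrays. The GAPDH 3' to 5' ratio was not higher in pool 2, at 0.876 to 1.01 beside 0.984 to 1.24 on the other arrays.

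In day 6 EBs 9 of the 34 members were higher and 0 lower than in ES cells (26.5% of members, 3.85% of all genes in either direction and 2.19% higher): 5 of 9 Frizzleds, 4 of 8 antagonists and 0 of 17 ligands by limma, where 2 ligands, WNT5B and WNT2B, had an unadjusted p under 0.05. Whether the classes differed was not tested. Pools 2 and 3 of day 6 and ES cells share numbers, and pool 3 of both also shares the passages of the starting cells. The first ES pool is unnumbered and was taken as pool 1 by its passages, which day 6 pools 1 and 2 both have. Blocked on pool number, 11 members were higher at day 6, and those added were a ligand, WNT5B (adjusted p = 0.00346), and DKK3 (adjusted p = 0.0153). The same block called 1454 of all genes in either direction, against 762 without it. From day 6 to untreated day 10, 4 members rose and 0 fell (11.8%, all genes 6.37% in either direction and 3.73% higher), of which 2 were ligands. Blocked on pool number, FRZB, FZD3, FZD5, SFRP4 and WNT10A, higher, and DKK1 and FZD7, lower, passed as well (adjusted p = 0.0184 to 0.0498). At this step the block called 2512 of all genes, against 1259 without it. From untreated day 10 to untreated day 17, 1 rose and 1 fell (5.88%, all genes 1.99% in either direction, 1.45% higher and 0.536% lower). Across the whole course, untreated day 17 against ES cells, 12 rose and 1 fell (38.2%, all genes 20.2% in either direction, 11.7% higher and 8.47% lower). Blocked on pool number, WNT5A, higher (adjusted p = 0.0286), and SFRP5, lower (adjusted p = 0.0379), passed as well. The count of all genes under the block is not given for this comparison. These added calls are therefore not read as particular to the members. Where groups of 3 are said below not to overlap, the same held for 19.8% of all genes at day 6 against ES cells, 23.2% at day 10 against day 6, 13.6% at day 17 against day 10 and 33.6% at day 17 against ES cells. These comparisons share groups (day 6, day 10, day 17 and ES arrays each serve more than 1), so they are not independent of each other. The median log2 change of the 34 members was 0.08 at day 6 against ES cells, 0.45 at day 10 against day 6, -0.07 at day 17 against day 10 and 0.57 at day 17 against ES cells, where all genes had medians of -0.00, 0.09, -0.01 and 0.09. An F test over all 6 groups called 16 of 34 members (47.1%, all genes 19.3%): 6 of 9 Frizzleds, 6 of 8 antagonists and 4 of 17 ligands.

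**Figure D1:**
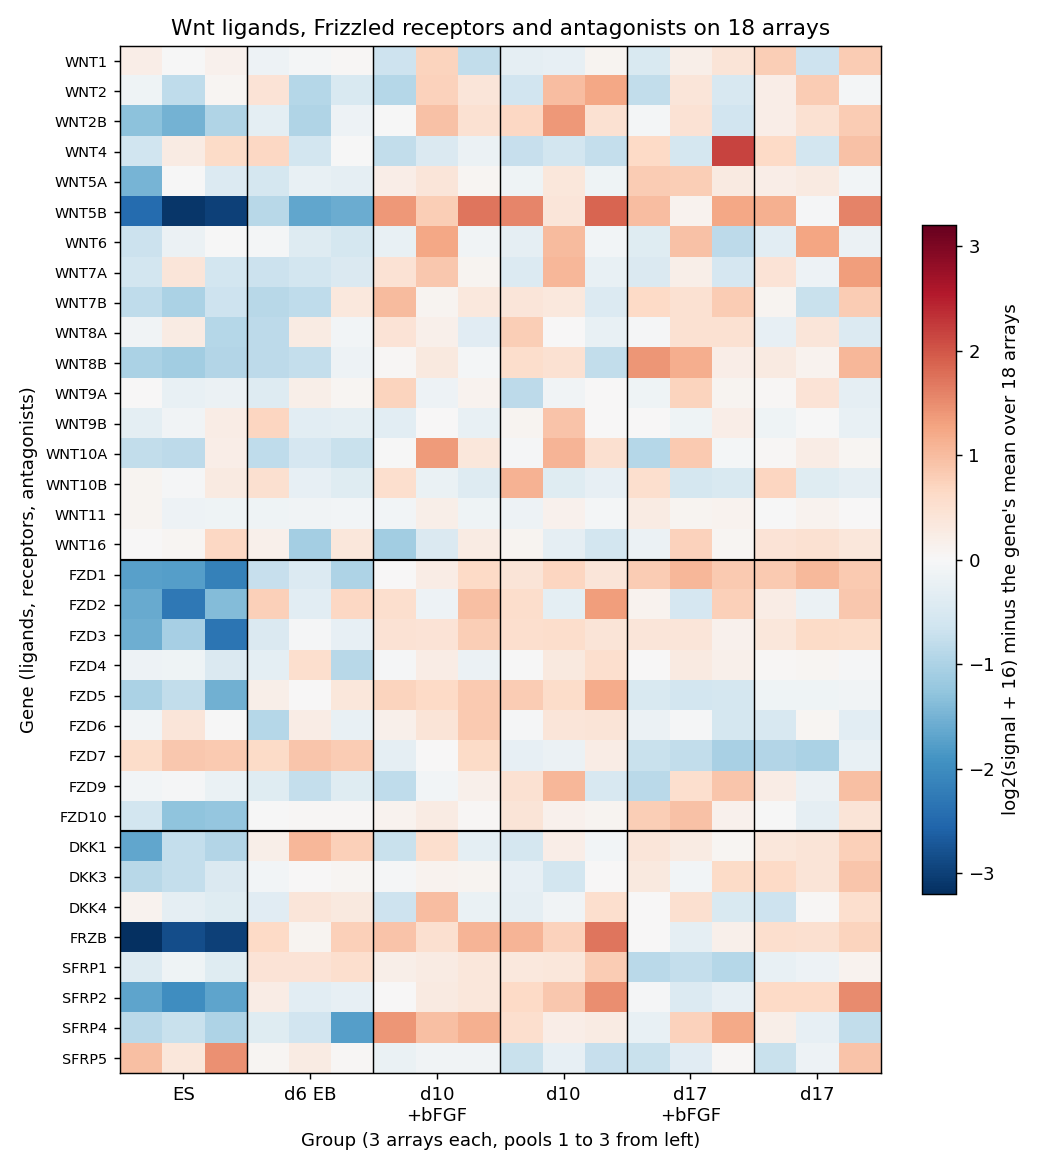
Each row is 1 of the 34 genes and each column 1 of the 18 arrays, coloured by log2(signal + 16) minus that gene's mean over all arrays; black lines part the groups, and the ligands, receptors and antagonists. FRZB and WNT5B were lowest on the 3 ES arrays, FZD7 was high on the ES and day 6 arrays, and most ligand rows show no block of colour that follows the groups.

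The promoters of 5 of the 9 members raised at day 6 are shown because these genes rose together; FZD2, FZD3, FZD10 and SFRP1 are not shown. Each run is the RefSeq sequence from 250 bases before to 50 bases after the gene's start in GRCh38.p14, 5′ to 3′ on the gene's strand: DKK1 at chr10:52314031-52314330 (plus strand), FRZB at chr2:182866588-182866887 (minus strand), FZD1 at chr7:91264183-91264482 (plus strand), FZD5 at chr2:207769857-207770156 (minus strand) and SFRP2 at chr4:153789034-153789333 (minus strand). Capitals mark the CCAAT box (CCAAT or, on the other strand, ATTGG) and 1 form of the core of the site bound by TCF and LEF factors, the DNA-binding partners of beta-catenin (CTTTGA or TCAAAG). Other forms of that core were neither marked nor counted.
DKK1: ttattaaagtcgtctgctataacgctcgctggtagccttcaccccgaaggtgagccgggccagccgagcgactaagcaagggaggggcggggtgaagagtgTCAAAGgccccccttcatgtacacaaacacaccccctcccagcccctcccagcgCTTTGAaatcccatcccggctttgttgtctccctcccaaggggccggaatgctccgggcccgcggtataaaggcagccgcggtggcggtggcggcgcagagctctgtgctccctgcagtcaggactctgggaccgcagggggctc
FRZB: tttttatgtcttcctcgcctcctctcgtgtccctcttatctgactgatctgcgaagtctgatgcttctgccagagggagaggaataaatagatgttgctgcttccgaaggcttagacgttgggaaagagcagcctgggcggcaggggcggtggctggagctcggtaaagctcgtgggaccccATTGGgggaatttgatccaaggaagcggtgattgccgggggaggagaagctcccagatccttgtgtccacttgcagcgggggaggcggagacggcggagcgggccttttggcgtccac
FZD1: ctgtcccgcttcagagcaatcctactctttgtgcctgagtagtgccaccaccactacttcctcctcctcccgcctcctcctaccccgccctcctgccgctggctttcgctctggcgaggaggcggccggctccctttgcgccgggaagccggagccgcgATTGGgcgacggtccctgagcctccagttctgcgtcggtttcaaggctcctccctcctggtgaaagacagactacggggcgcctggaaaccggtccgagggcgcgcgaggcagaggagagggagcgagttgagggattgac
FZD5: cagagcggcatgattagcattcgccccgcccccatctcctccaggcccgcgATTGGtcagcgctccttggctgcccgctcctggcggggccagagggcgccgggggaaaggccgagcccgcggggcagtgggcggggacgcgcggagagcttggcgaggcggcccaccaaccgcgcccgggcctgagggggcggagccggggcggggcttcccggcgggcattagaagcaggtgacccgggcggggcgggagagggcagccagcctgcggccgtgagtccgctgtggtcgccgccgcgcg
SFRP2: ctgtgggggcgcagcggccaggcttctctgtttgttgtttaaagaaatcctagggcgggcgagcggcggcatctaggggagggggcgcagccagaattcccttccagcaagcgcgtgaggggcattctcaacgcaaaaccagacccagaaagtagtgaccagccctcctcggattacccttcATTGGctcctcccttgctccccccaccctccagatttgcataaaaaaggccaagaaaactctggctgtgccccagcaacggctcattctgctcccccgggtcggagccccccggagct
DKK1 held 2 CTTTGA cores and no CCAAT box, and the other four held 1 CCAAT box each and no CTTTGA core. CCAAT was held by 34.6% of the 35116 RefSeq promoters and CTTTGA by 12.9%, on either strand. Among the 26 promoters of the 23 members with an entry, 11 held CCAAT and 1 held CTTTGA. No match overlapped another, and a match is a run of letters and not a bound site.

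Among the Frizzled receptors, FZD5, a receptor of the eye field and early forebrain, was high at day 6 and highest at day 10. Its signals were 2419, 2859.6 and 1691 in ES cells, 5572, 4931 and 6375 at day 6, 8641, 7454 and 11138 at untreated day 10 and 4508, 4463 and 4529 at untreated day 17. The ranges of neighbouring times did not overlap, with the rise to day 10 followed by a decrease to day 17. FZD5 rose at day 6 against ES cells (1.30 ± 0.21, adjusted p = 0.00119), stood higher at day 10 than at day 6 without passing the test (0.68 ± 0.21, adjusted p = 0.0666, unadjusted p = 0.00485) and fell at day 17 against day 10 (-0.99 ± 0.21, adjusted p = 0.0183). Blocked on pool number, the step from day 6 to day 10 passed (adjusted p = 0.0402) and the fall at day 17 was kept (adjusted p = 0.0114). In bulk RNA a lower signal from fewer cells of a type and from less RNA per cell cannot be told apart, here and in every result below. The day 17 call on FZD5 was lost without any 1 of untreated day 10 pools 1 or 3, untreated day 17 pools 1, 2 or 3 (log2 change -1.02 to -0.83, adjusted p = 0.0519 to 0.0965). It was also lost after quantile scaling (adjusted p = 0.0578), in a fit of the compared groups alone (adjusted p = 0.227), without pool 2 of the neuroepithelial groups (adjusted p = 0.0718) or without pool 2 of all groups (adjusted p = 0.07). A second probe set of FZD5 gave 1.30, 0.42 and -1.08 for the same comparisons.

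FZD7, a Frizzled that is abundant in human pluripotent cells, went the other way. Its signals were 2640.2, 3214 and 3159.8 in ES cells, 2668, 3274 and 3109.8 at day 6, 1453, 1552 and 2086 at untreated day 10 and 915, 865 and 1481 at untreated day 17. ES and day 6 signals overlapped, and all 3 day 17 signals lay under every ES signal. It was the 1 member that fell over the whole course, day 17 against ES cells (-1.49 ± 0.25, adjusted p = 0.000399), and a second probe set gave -2.21. Its steps from day 6 to day 10 (-0.84 ± 0.25, adjusted p = 0.0641, unadjusted p = 0.0046) and from day 10 to day 17 (-0.66 ± 0.25, adjusted p = 0.318, unadjusted p = 0.0195) did not pass. The second probe set did pass at both, at -0.97 (adjusted p = 0.0176) and -1.05 (adjusted p = 0.0319), adjusted over all probe sets. Blocked on pool number, FZD7 passed at day 10 against day 6 with the kept probe set (adjusted p = 0.0184).

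FZD1, FZD2 and FZD3 all stood higher at day 6 than in ES cells and stayed high. FZD1, which can signal through beta-catenin, had 49.0, 48.4 and 32.4 in ES cells, 115, 145 and 93.5 at day 6, 274, 335 and 269.8 at untreated day 10 and 374, 431 and 370.2 at untreated day 17, each group above the one before with no overlap. It rose at day 6 (1.17 ± 0.21, adjusted p = 0.00288) and again at day 10 (1.22 ± 0.21, adjusted p = 0.00135), and over the whole course by 2.79 ± 0.21, adjusted p = 7.32e-08. Its step from day 10 to day 17 did not pass (0.40 ± 0.21, adjusted p = 0.594, unadjusted p = 0.0717). Its day 6 call was lost with its probe sets averaged (adjusted p = 0.513) or without pool 2 of all groups (adjusted p = 0.0539). The 2 other probe sets of FZD1 gave 0.13 and -0.21 at day 6 and 0.81 and 1.16 over the whole course, so the probe sets disagree on the day 6 step. The average of the 3 gave 0.37 at day 6 and 1.59 over the whole course, and a pseudocount of 64 gave 0.75 at day 6.

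FZD3, a receptor needed for axon tract formation in the mouse, had 653, 942 and 376 in ES cells, 1434, 1910.3 and 1654 at day 6, 2887, 2937 and 2632 at untreated day 10 and 2547, 3055 and 2995 at untreated day 17. The ES and day 6 ranges lay apart, and day 10 and day 17 overlapped. It rose at day 6 (1.40 ± 0.26, adjusted p = 0.00327) and over the whole course (2.19 ± 0.26, adjusted p = 9.37e-06). Its 4 probe sets gave 1.40, 1.25, 1.24 and 1.61 at day 6. Its day 6 call was lost in a fit of the compared groups alone (adjusted p = 0.065).

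FZD2, a receptor that binds WNT5A, had 2112, 980.1 and 1969.7 at day 6, against 399, 242 and 470.1 in ES cells, and rose by 2.11 ± 0.46, adjusted p = 0.0132. Pool 2 gave the lowest FZD2 signal in all 6 groups, including 994 at untreated day 10 where the other pools had 1861 and 3194. At untreated day 17 the signals were 1463, 1102 and 2289.8, higher than in ES cells (2.06 ± 0.46, adjusted p = 0.00358). The day 6 call on FZD2 was lost without day 6 pool 1 (log2 change 1.91, adjusted p = 0.0779), day 6 pool 3 (log2 change 1.96, adjusted p = 0.0711) or ES pool 2 (log2 change 1.85, adjusted p = 0.0677). It was kept when blocked on pool number (adjusted p = 5.49e-06). A second probe set of FZD2 gave 1.66 at day 6 (adjusted p = 0.000194 over all probe sets) and 2.55 over the whole course. At day 10 against day 6 that probe set gave 0.77 (adjusted p = 0.0516), where the kept one gave 0.18. FZD10 had 59.4, 61.7 and 61.3 at day 6, against 34.3, 14.7 and 16.3 in ES cells (1.06 ± 0.25, adjusted p = 0.0214). It stayed near that level at untreated day 17, with 59.6, 46.3 and 84.8 (1.08 ± 0.25, adjusted p = 0.00443 against ES cells). The day 6 call on FZD10 was lost without any 1 of day 6 pools 1, 2 or 3, ES pools 2 or 3 (log2 change 0.93 to 1.07, adjusted p = 0.0714 to 0.0955). The same call was lost in a fit of the compared groups alone (adjusted p = 0.0607) or without pool 2 of all groups (adjusted p = 0.172). After quantile scaling the day 17 change against ES cells also missed the threshold (adjusted p = 0.051), and a pseudocount of 64 gave 0.55 at day 6 and 0.57 at day 17.

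The remaining 3 Frizzleds passed no test. FZD4, the receptor of norrin, ran from 45.8 to 149 over the 18 arrays, FZD6, which acts in planar cell polarity, from 115 to 425, and FZD9 from 1.53 to 50.5. FZD6 overlapped at every step of the untreated course. FZD4 overlapped at each step and lay apart at untreated day 17, with 102, 104 and 95.2, against 86.9, 88.1 and 67.8 in ES cells (0.27 ± 0.28, adjusted p = 0.585, unadjusted p = 0.338). FZD9 lay apart at day 6, with 8.12, 2.63 and 8.25, against 13.8, 14.8 and 11.6 in ES cells (-0.41 ± 0.45, adjusted p = 0.861, unadjusted p = 0.376), both low signals.

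**Figure D2:**
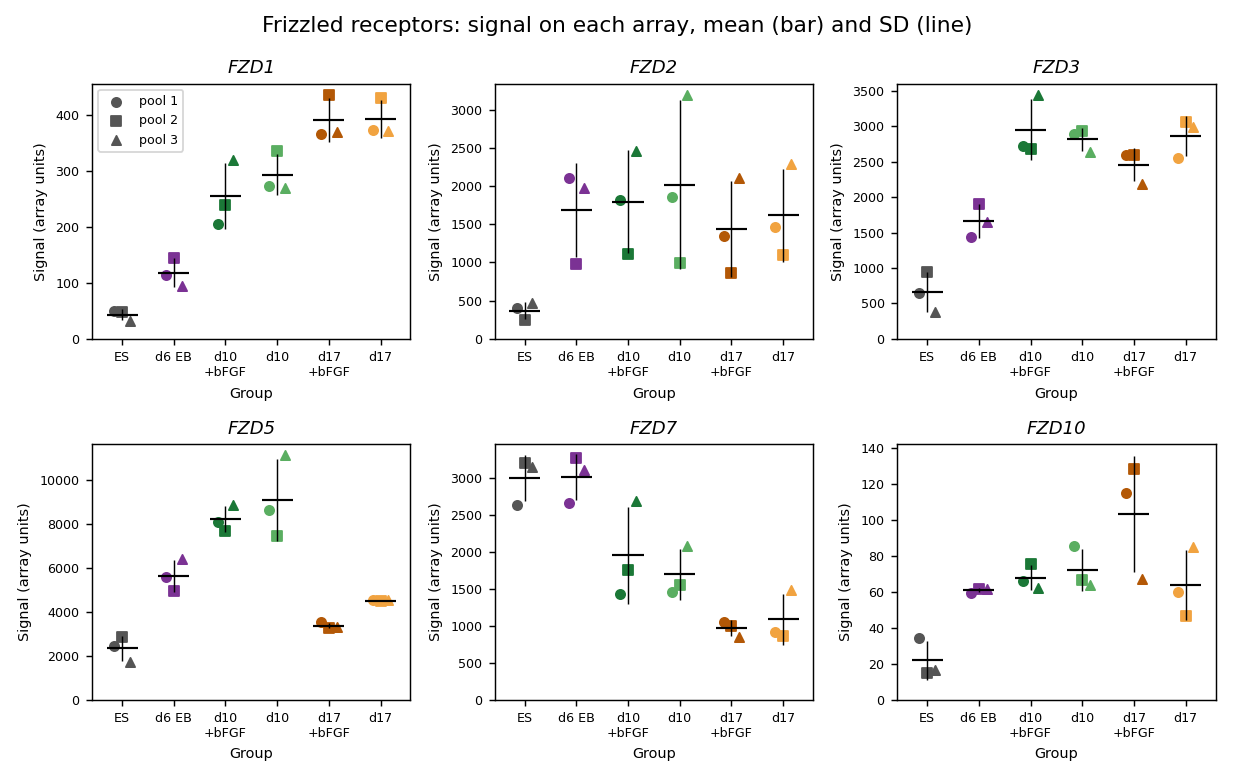
Signal of 6 Frizzled receptors (array units, axis from 0) in each group, with 1 point per array, a bar at the mean and a line of 1 SD either side (n = 3, cut at 0). FZD1 and FZD3 stood above their ES signals in every later group, FZD5 had its highest means at day 10, and FZD7 its lowest means at day 17.

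The largest change among the antagonists was in FRZB, a Wnt-binding relative of the SFRPs. It had 150.1, 217 and 197 in ES cells, 2578, 1781 and 2820.0 at day 6, 3551, 2803 and 5491 at untreated day 10 and 2406, 2364 and 2728 at untreated day 17. Every later signal lay above the ES signals, while day 6 and day 10 overlapped. FRZB rose at day 6 (3.55 ± 0.26, adjusted p = 4.12e-07), and its 2 other probe sets gave 2.99 and 1.83. Over the whole course the change was 3.64 ± 0.26, adjusted p = 4.35e-08. The steps from day 6 to day 10 (0.69 ± 0.26, adjusted p = 0.152, unadjusted p = 0.0177) and from day 10 to day 17 (-0.60 ± 0.26, adjusted p = 0.43, unadjusted p = 0.0344) did not pass. Blocked on pool number, the step from day 6 to day 10 did (adjusted p = 0.0355).

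SFRP2, which is made by neural progenitors in the mouse embryo, rose in 2 steps. Its signals were 1031, 836 and 1027 in ES cells, 3959, 2652 and 2780.2 at day 6, 5258, 6061 and 9510.5 at untreated day 10 and 5244, 5250.2 and 9651 at untreated day 17. The first 3 groups lay apart, and day 10 and day 17 overlapped, with pool 3 highest in both. The change was 1.66 ± 0.27, adjusted p = 0.00141 at day 6 and 1.12 ± 0.27, adjusted p = 0.0187 at day 10, and 2.72 ± 0.27, adjusted p = 1.78e-06 over the whole course. The day 10 call was lost without day 6 pool 2 (log2 change 1.01, adjusted p = 0.0856), day 6 pool 3 (log2 change 1.05, adjusted p = 0.0813) or untreated day 10 pool 3 (log2 change 0.87, adjusted p = 0.095). The same call was lost in a fit of the compared groups alone (adjusted p = 0.0979), with its probe sets averaged (adjusted p = 0.0752) or without pool 2 of all groups (adjusted p = 0.138).

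SFRP1 changed least of the members that passed at day 6. It had 3776, 4599 and 3871 in ES cells, 6798, 6806 and 7268 at day 6, 6347, 6523 and 8788 at untreated day 10 and 4255, 4479.9 and 5417 at untreated day 17. Day 6 lay above ES cells, and day 17 lay under day 10 and overlapped ES cells. The rise at day 6 was 0.77 ± 0.18, adjusted p = 0.0189. The difference at day 17 against day 10 was -0.60 ± 0.18, adjusted p = 0.117, unadjusted p = 0.00354, and it passed when blocked on pool number (adjusted p = 0.0394). Its 3 other probe sets gave -0.97 (adjusted p = 0.024 over all probe sets), -1.15 and -0.89 for that step, and 0.90, 0.68 and 0.01 at day 6. The day 6 call was lost without any 1 of day 6 pools 1, 2 or 3, ES pools 1 or 3 (log2 change 0.72 to 0.79, adjusted p = 0.0574 to 0.0856). The same call was lost in a fit of the compared groups alone (adjusted p = 0.0857), with its probe sets averaged (adjusted p = 0.155) or without pool 2 of all groups (adjusted p = 0.0964).

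DKK1, which blocks LRP5 and LRP6 and is itself a target of beta-catenin, had 20.1, 50.8 and 43.7 in ES cells, 114, 221 and 176 at day 6, 61.9, 117 and 91.8 at untreated day 10 and 131, 136 and 179 at untreated day 17. All later signals lay above all ES signals, and the day 10 signals overlapped those of day 6 and lay under those of day 17. DKK1 rose at day 6 (1.79 ± 0.33, adjusted p = 0.00354) and stood higher at day 17 than in ES cells (1.64 ± 0.33, adjusted p = 0.00156). The difference at day 10 against day 6 did not pass (-0.80 ± 0.33, adjusted p = 0.194, unadjusted p = 0.0267) without the block on pool number, and passed with it (adjusted p = 0.0463). With a pseudocount of 64 its changes against ES cells were 1.18 at day 6 and 1.06 at day 17.

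DKK3, a divergent Dickkopf whose effect on Wnt signalling varies between settings, rose late. It had 350.1, 379 and 472 in ES cells, 620.2, 667 and 687 at day 6, 545, 434 and 657 at untreated day 10 and 1027, 883 and 1222 at untreated day 17, and all 3 day 17 signals were the highest of the untreated course. DKK3 rose at day 17 against day 10 (0.92 ± 0.21, adjusted p = 0.0329) and against ES cells (1.35 ± 0.21, adjusted p = 0.000211), and the difference at day 6 against ES cells did not pass (0.71 ± 0.21, adjusted p = 0.091, unadjusted p = 0.00461) without the block on pool number. The call at day 17 against day 10 was lost without any 1 of untreated day 10 pools 1 or 2, untreated day 17 pools 1 or 3 (log2 change 0.77 to 0.93, adjusted p = 0.0917 to 0.159). The same call was lost with a pseudocount of 1 (adjusted p = 0.0667), in a fit of the compared groups alone (adjusted p = 0.305), with its probe sets averaged (adjusted p = 0.18), without pool 2 of the neuroepithelial groups (adjusted p = 0.103) or without pool 2 of all groups (adjusted p = 0.155). With the pool number as a block, the call at day 17 against day 10 was kept (adjusted p = 0.0046). The 5 other probe sets of DKK3 gave 0.95, -0.01, 0.67, 0.18 and 0.18 for that step, and the average of its probe sets gave 0.59 against ES cells.

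SFRP4 and SFRP5 had low signals. SFRP4, called by the F test over the 6 groups (adjusted p = 0.0018), had 79.1, 59.7 and 62.0 at untreated day 10, against 33.7, 26.8 and 3.28 at day 6 (1.26 ± 0.37, adjusted p = 0.0541, unadjusted p = 0.0036). SFRP5 had 14.7 to 20.0 at day 6, against 42.5, 22.0 and 65.9 in ES cells (-0.80 ± 0.35, adjusted p = 0.32, unadjusted p = 0.035), so neither step passed. Blocked on pool number, the SFRP4 step did (adjusted p = 0.0396). DKK4 stayed between 0.881 and 36.9 on all 18 arrays.

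**Figure D3:**
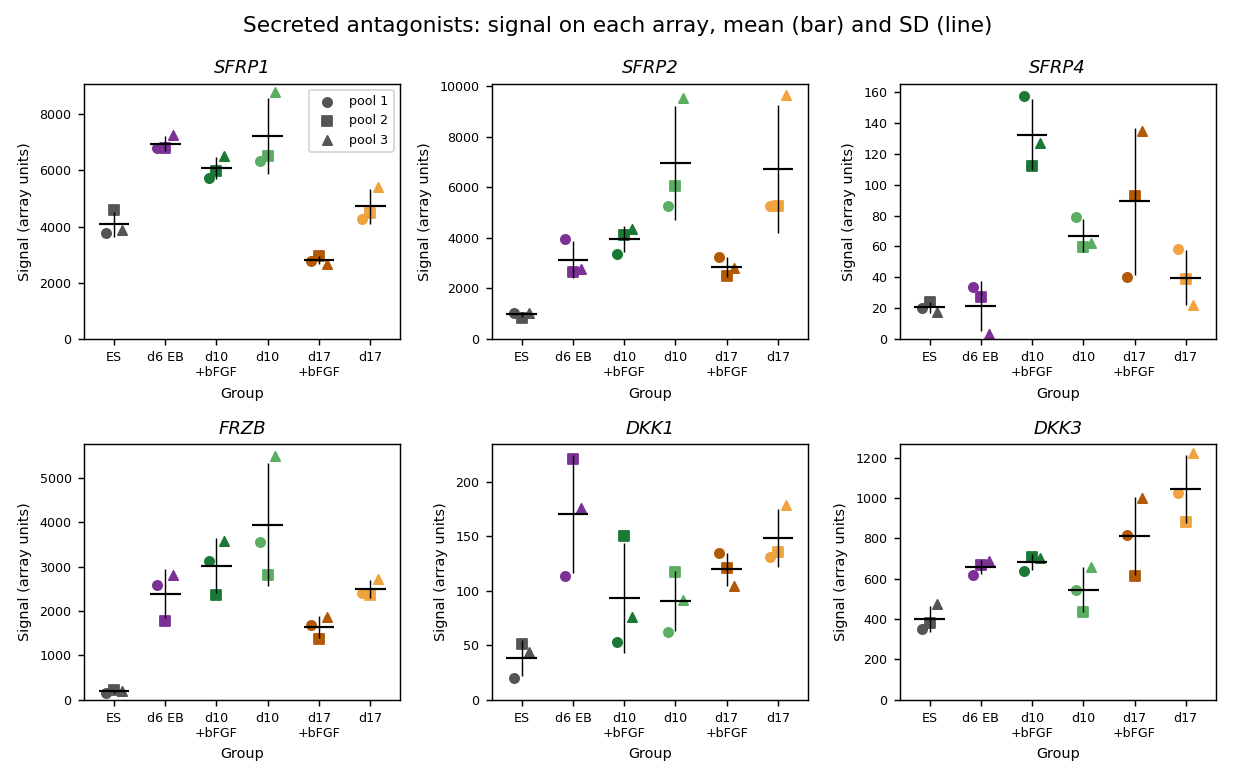
Signal of 6 secreted antagonists (array units, axis from 0) in each group, with 1 point per array, a bar at the mean and a line of 1 SD either side (n = 3, cut at 0). FRZB and SFRP2 were lowest in ES cells, DKK3 had its highest mean at untreated day 17, and the bFGF points of SFRP1, SFRP2 and FRZB at day 17 lie under the untreated ones.

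Of the ligands, WNT5B, which acts largely without beta-catenin, had the largest log2 change. It had 12.4, 2.02 and 3.85 in ES cells, 68.6, 33.8 and 36.1 at day 6, 449.6, 188 and 557 at untreated day 10 and 331, 137 and 452 at untreated day 17. The first 3 groups lay apart, and pool 2 gave the lowest WNT5B signal in every group, with and without bFGF. It rose at day 10 against day 6 (2.65 ± 0.45, adjusted p = 0.00122) and over the whole course (3.75 ± 0.45, adjusted p = 1.19e-05). With a pseudocount of 1 the whole-course change was 5.56, and with 64 it was 2.30. The step at day 6, with no overlap, did not pass without the block on pool number (1.48 ± 0.45, adjusted p = 0.0905, unadjusted p = 0.00457). Of its 2 other probe sets 1 gave 2.38 for day 10 against day 6 and the dimmest gave 0.16, and the average of all 3 gave 1.73. The related WNT5A had 171, 181 and 134 at untreated day 17, against 41.3, 142 and 102 in ES cells, with overlap (0.79 ± 0.30, adjusted p = 0.075, unadjusted p = 0.0171).

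WNT2B, a ligand made at the dorsal midline of the mouse forebrain, had 18.6, 13.7 and 27.6 in ES cells, 52.7, 27.8 and 59.7 at day 6, 119, 207 and 104 at untreated day 10 and 82.4, 104 and 133 at untreated day 17. All day 10 signals lay above all day 6 signals, and the highest came from pool 2. WNT2B rose at day 10 (1.33 ± 0.33, adjusted p = 0.0217) and over the whole course (1.77 ± 0.33, adjusted p = 0.000905). The day 10 call was lost without day 6 pool 2 (log2 change 1.09, adjusted p = 0.113) or untreated day 10 pool 2 (log2 change 1.06, adjusted p = 0.111). It was also lost in a fit of the compared groups alone (adjusted p = 0.0743), without pool 2 of the neuroepithelial groups (adjusted p = 0.0614) or without pool 2 of all groups (adjusted p = 0.185). Its 3 other probe sets gave 1.02, 1.56 and 1.04 at day 10, and 0.39, 2.56 and 0.46 over the whole course. With a pseudocount of 64 WNT2B changed by 0.89 at day 10 and 1.02 over the whole course. WNT8B, also a forebrain ligand, had 28.9, 24.4 and 61.5 at untreated day 17, against 2.25, 1.19 and 3.34 in ES cells (1.51 ± 0.37, adjusted p = 0.00716); these are low signals, and the change was 0.61 with a pseudocount of 64 and 3.53 with a pseudocount of 1.

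The other 14 ligands, WNT5A among them, passed no pairwise test without the block on pool number. With it, WNT5A passed at day 17 against ES cells and WNT10A at day 10 against day 6 (adjusted p = 0.0294). WNT10A had 18.4, 59.1 and 34.2 at untreated day 10, against 3.98, 8.04 and 5.43 at day 6, with no overlap (1.22 ± 0.43, unblocked adjusted p = 0.118, unadjusted p = 0.0117). A second, dimmer probe set of WNT10A gave 0.13 for that step (adjusted p = 0.882 over all probe sets). WNT6 and WNT10A, ligands of surface ectoderm and other epithelia, were highest in pool 2 of all 4 neuroepithelial groups, as were 20.7% of all genes. WNT6 had 180.0, 153, 143 and 186 on those arrays and 30.6 to 66.3 on the remaining 14. These are the arrays with the raised median signals, and the part of that in the WNT6 and WNT10A values was not tested. WNT4 was 116 on 1 array, bFGF day 17 pool 3, and at most 40.4 on the others. Signals under 100 on all 18 arrays were found in 15 members, 12 of them ligands (WNT1, WNT2, WNT7A, WNT7B, WNT8A, WNT8B, WNT9A, WNT9B, WNT10A, WNT10B, WNT11 and WNT16) with FZD9, DKK4 and SFRP5. Without detection calls such signals set no bound, and only 18 of the 34 members were among the upper 60% of genes by mean signal.

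**Figure D4:**
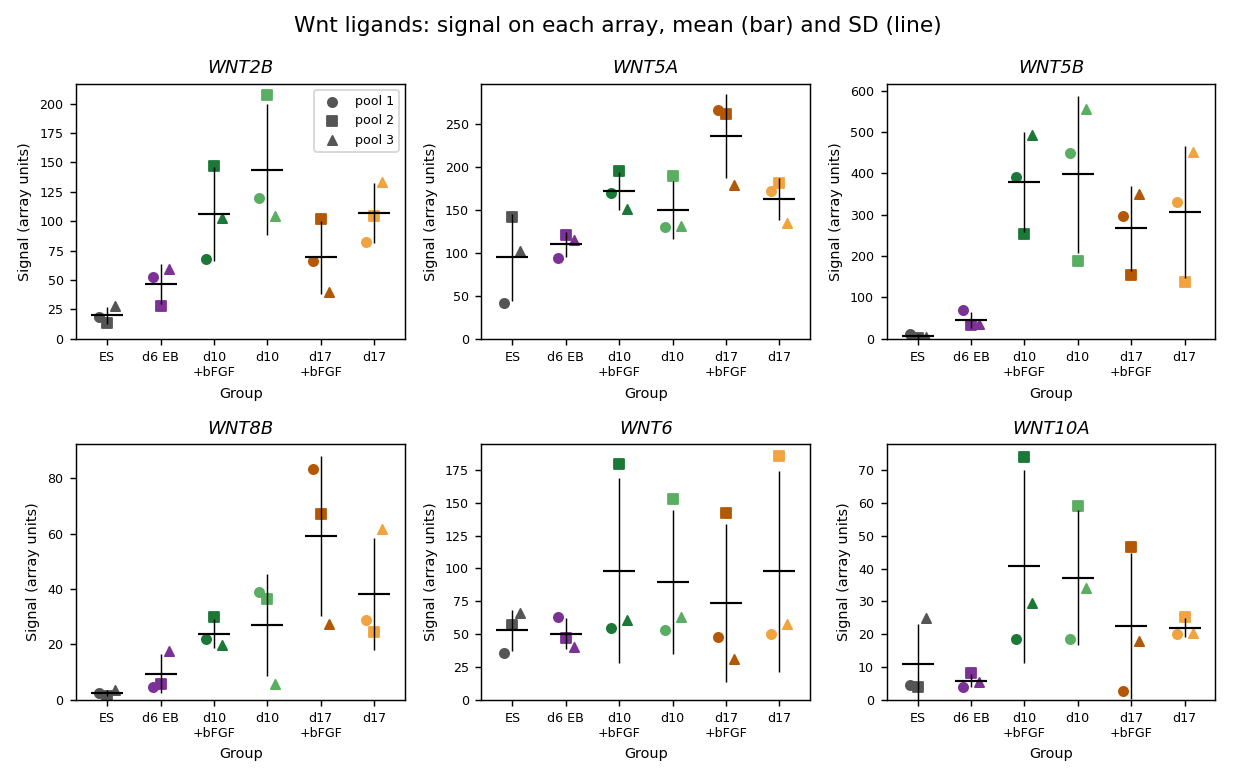
Signal of 6 Wnt ligands (array units, axis from 0) in each group, with 1 point per array, a bar at the mean and a line of 1 SD either side (n = 3, cut at 0). WNT5B and WNT2B were low in ES cells and higher from day 10, and pool 2 (squares) stands above the other pools for WNT6 and WNT10A in the 4 neuroepithelial groups.

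The next comparison asked what bFGF did to these genes at each day. In limma's test 0 of 34 members passed at day 10 (all genes 0.086%, with 0.0809% higher and 0.00506% lower) and 0 of 34 at day 17 (all genes 0.339%, with 0.182% higher and 0.157% lower), with an unadjusted p under 0.05 in 2 and 5 members. The groups of 3 did not overlap in 6.11% of all genes at day 10 and 9.03% at day 17. When both days were averaged, SFRP2 alone passed, lower with bFGF (-0.98 ± 0.19, adjusted p = 0.0374; 2.94% of members, all genes 0.329%, with 0.228% higher and 0.101% lower). SFRP2 had 3368, 4105 and 4353 with bFGF at day 10, against 5258, 6061 and 9510.5 without it. At day 17 it had 3250.0, 2482 and 2782 with bFGF, against 5244, 5250.2 and 9651 without it. All bFGF signals lay under all untreated signals of the same day. With the pool number as a block, the averaged call on SFRP2 was kept (adjusted p = 0.0149). The averaged call was lost without any 1 of untreated day 10 pools 2 or 3, bFGF day 10 pools 1, 2 or 3, untreated day 17 pool 3, bFGF day 17 pools 1, 2 or 3 (log2 change -1.03 to -0.83, adjusted p = 0.06 to 0.129). The same call was lost with a pseudocount of 1 (adjusted p = 0.0955), in a fit of the compared groups alone (adjusted p = 0.156), with its probe sets averaged (adjusted p = 0.0676), without pool 2 of the neuroepithelial groups (adjusted p = 0.158) or without pool 2 of all groups (adjusted p = 0.235). The effect on SFRP2 was -0.78 ± 0.27, adjusted p = 1, unadjusted p = 0.0117 at day 10 and -1.18 ± 0.27, adjusted p = 0.112, unadjusted p = 0.000498 at day 17.

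Pools of the same number deviated together among the neuroepithelial groups. Blocking on that number, 2 members passed at day 17: SFRP2 (adjusted p = 0.043) and SFRP1 (adjusted p = 0.044), both lower with bFGF. The same block called 120 of all 19775 genes in either direction, against 67 without it. SFRP1 had 2777, 2964 and 2682 with bFGF at day 17, against 4255, 4479.9 and 5417 without it, with no overlap (-0.74 ± 0.18, adjusted p = 0.144, unadjusted p = 0.000711). At day 10 it had 5745, 5997 and 6511 with bFGF, against 6347, 6523 and 8788 without it, with overlap (-0.23 ± 0.18, adjusted p = 1, unadjusted p = 0.208). FRZB had 1675, 1359 and 1856 with bFGF at day 17, against 2406, 2364 and 2728 without it, and the groups lay apart though the test did not pass (-0.62 ± 0.26, adjusted p = 0.918, unadjusted p = 0.03). Across the 6 same-numbered pairs of pools, 3 at each day, FRZB, SFRP1, SFRP2, WNT2 and WNT2B were lower with bFGF in all 6, as were 3.34% of all genes, and WNT5A was higher in all 6, as were 2.65% of all genes.

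SFRP4 had higher mean signals with bFGF at both days. It had 158, 112 and 127 with bFGF at day 10, against 79.1, 59.7 and 62.0 without it, and 39.8, 92.4 and 135 with bFGF at day 17, against 58.1, 38.6 and 22.1 without it. It was higher with bFGF in 5 of 6 pairs, and the averaged effect did not pass (0.85 ± 0.26, adjusted p = 0.411, unadjusted p = 0.00514). For the Frizzleds the averaged effects did not pass either, and their 95% intervals at day 17 included 0 in all but FZD10, which had 115, 128 and 66.9 with bFGF, against 59.6, 46.3 and 84.8 without it (0.57 ± 0.25, adjusted p = 0.944, unadjusted p = 0.0344). FZD5 had 3522, 3271 and 3315 with bFGF at day 17, against 4508, 4463 and 4529 without it, with no overlap (-0.42 ± 0.21, adjusted p = 1, unadjusted p = 0.0615). The bFGF effect did not differ between the days in any member by limma's test of the difference (0 of 34, all genes 0%, 631 genes at an unadjusted p under 0.05), where DKK3 had an unadjusted p of 0.0332 and no other member was under 0.05. A p that misses the threshold does not show that the effects were equal.

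**Figure D5:**
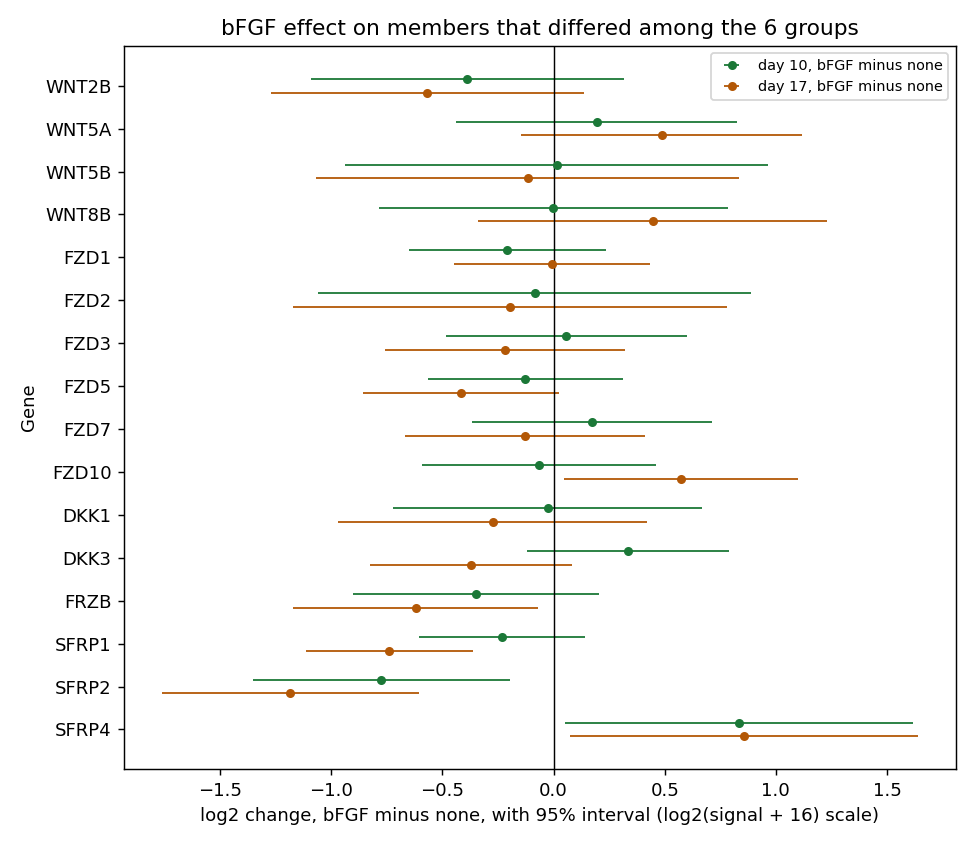
Log2 change with bFGF minus without it (log2(signal + 16) scale) and its 95% interval, at day 10 (green) and day 17 (orange), for the 16 members that the F test over the 6 groups called. The intervals of SFRP2 lie under 0 at both days and those of SFRP1 and FRZB at day 17, while those of SFRP4 lie above 0; none of these single-day effects passed the adjusted test.

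Other genes of the pathway were taken from 5 lists with 78 measured members in all. At day 6 against ES cells 12 of the 78 rose and 2 fell (all genes 3.85% in either direction), with a median log2 change of 0.31. Of the genes for Wnt secretion and extracellular regulation, 3 of 14 rose and 0 fell: WLS, the carrier that brings Wnts to the cell surface (2.81), RSPO3, an R-spondin that strengthens Wnt signals (2.63), and NDP, the norrin ligand of FZD4 (1.63). WLS averaged 431 ± 60.2 at day 6, against 48.8 ± 16.7 in ES cells (SD, n = 3 each). Of the coreceptors and other receptors 4 of 19 rose and 0 fell: GPC3, a cell-surface glypican (2.14), TPBG, a Wnt-modulating membrane protein (1.98), ROR2, a receptor for WNT5A (1.49), and LGR5, an R-spondin receptor (1.13). Of the nuclear effectors and common targets 5 of 18 rose and 1 fell, among them SP8 (2.99), NRCAM (2.29), LEF1, a TCF family factor (2.27), and SP5 (2.21), while MYC, chosen after its value was seen as the 1 that fell, changed by -1.41. Of the planar cell polarity genes 0 of 11 rose and PRICKLE1 fell (-1.63), and of the 16 cytoplasmic transducers, the DVL, AXIN, APC and GSK3 genes among them, 0 passed in limma's test and 0 had an unadjusted p under 0.05.

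At untreated day 10 against day 6, 8 of the 78 rose and 5 fell (all genes 6.37%), with a median of -0.02. Receptors split: LGR5 (1.88) and TSPAN12, a partner of FZD4 (0.88), rose, and ROR1 (-1.93) and GPC4 (-1.61) fell. Of the extracellular regulators SOSTDC1 (1.48) and NDP (0.89) rose, of the effectors and targets 3 rose and 3 fell, led by SP5 (-1.78), SP8 (1.71), PYGO1 (1.31) and the corepressor TLE1 (-1.23), and of the polarity genes DAAM2 rose (1.09). None of the 16 transducers passed in limma's test, and 1 had an unadjusted p under 0.05. At untreated day 17 against day 10, 4 rose and 3 fell (all genes 1.99%): LGR5 (1.18), GPC4 (1.35), NKD1 (1.15) and TLE1 (0.89) rose, and ROR2 (-1.88), GPC3 (-1.78) and ROR1 (-0.97, chosen after its value was seen) fell. LGR5 averaged 8.34 ± 6.48 in ES cells, 36.1 ± 6.49 at day 6, 175 ± 16.3 at untreated day 10 and 422 ± 81.3 at untreated day 17 (SD, n = 3 each). Over the whole course, day 17 against ES cells, 27 of 78 rose and 6 fell (42.3%, all genes 20.2%), led by SP8 (4.25), LGR5 (4.19), WLS (3.85) and RSPO3 (3.34). With bFGF 0 of 78 passed at day 10 and 0 at day 17 in limma's test, with an unadjusted p under 0.05 in 5 and 12. Of all 19775 genes 0.086% and 0.339% passed, and 613 and 980 had an unadjusted p under 0.05.

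Markers of other cell types moved with some of these steps. The summed signal of 8 mesenchyme and smooth muscle markers was 4535 to 5598 in ES cells, 1148 to 1259 at day 6, 6698 to 7786 at untreated day 10 and 12878 to 16307 at untreated day 17, and 4 of the 8 rose at day 10, the step at which WNT5B and WNT2B rose. At that step 5 of 7 neuroepithelial markers rose (19076 to 33334 at untreated day 10, against 13561 to 16062 at day 6), 2 of 5 neuronal markers rose (2967 to 6297, against 3173 to 5635 at day 6) and 4 of 6 pluripotency markers fell (9534 to 11448, against 15438 to 17126 at day 6). Of 8 roof plate, hem and choroid plexus markers 0 passed in limma's test there (3382 to 5302, against 3942 to 5007 at day 6), and 2 had an unadjusted p under 0.05. LMX1A, RSPO2 and TTR of that list were under 50 in both groups. PRRX1 was under 50 on all untreated day 10 arrays. The 6 neural crest markers summed to 1439 to 1562 at day 6, against 233 to 298 in ES cells, with 5 of 6 higher and FOXD3 lower and under 50 at day 6, in the comparison in which FRZB and 5 Frizzleds rose. In it 3 of 6 trophoblast markers were also higher (1213 to 1679 at day 6, against 477 to 651 in ES cells), with CGA under 50 in both groups, as were 3 of 7 neuroepithelial markers (13561 to 16062, against 8607 to 10088 in ES cells), while 3 of 6 pluripotency markers were lower. The 5 neuronal markers summed to 10576 to 12678 at untreated day 17, against 2967 to 6297 at untreated day 10, with 4 of 5 higher, at the step at which DKK3 rose and FZD5 fell. Of the liver and yolk sac markers 3 of 7 rose there (1516 to 2291 at untreated day 17, against 161 to 598 at untreated day 10), and 3 of 6 pluripotency markers fell. Of the 7 liver and yolk sac markers 2 were lower with bFGF at day 17, where the sum was 397 to 508 with bFGF, against 1516 to 2291 without it, beside the lower SFRP1 and SFRP2; APOA1 and ALB were under 50 on all arrays of both groups. The 2 were AFP (-2.55) and FGA (-2.17), and PRRX1, a mesenchyme marker, was higher with bFGF (2.18), the 1 of its 8 markers that passed. The 7 neuroepithelial markers summed to 25265 to 30678 with bFGF at day 17, against 22778 to 29013 without it, and 0 of 7 passed in limma's test. The 5 neuronal markers summed to 6662 to 11211 with bFGF at day 17, against 10576 to 12678 without it, with a median log2 change of -0.74. Of them 0 of 5 passed in limma's test, and 3 had an unadjusted p under 0.05. The part of these cells in the results was not tested.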

How the data were processed

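H9 cells were profiled on 18 Affymetrix arrays, with 3 RNA pools in each of 6 groups. The deposited values are linear intensity signals per probe set, which the authors had scaled to 1 level per array: the 2% trimmed mean was 150.016 to 150.026. The sources used here do not state how signals were summarised or whether background was removed, and no detection calls were used. Gene names came from the platform annotation, where 41097 of 54675 probe sets named 1 gene, 1801 several and 11777 none. Only probe sets naming 1 gene were used. Where a gene had another probe set, those marked as cross-hybridising (_x_at) were dropped, and the probe set with the highest mean log2 signal was kept, without regard to group. The 34 members have 71 probe sets, and 20 members have several.

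Values were analysed as log2(signal + 16). limma 3.58.1 in R 4.3.3 fitted 1 mean per group over all 18 arrays, with moderated tests (lmFit and eBayes) and Benjamini-Hochberg adjustment over 19775 genes. Nothing in the labels says that pools were separate differentiations, so p-values measure the spread between pools, which may be technical. The number of arrays limits the precision. The fit was tested on simulated data. Alternatives were other pseudocounts, quantile scaling, a filter on low signals, another prior, fits of the compared groups alone, averaged probe sets, the pool number as a block, and leaving out arrays.

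Among the neuroepithelial groups, deviations from the group means correlated between pools of the same number at 0.317 to 0.668, so the numbers were taken as pairs there. Between day 6 and ES pools they were 0.209 to 0.383, and between day 17 and ES pools 0.156 to 0.248. The first ES pool has no number in the labels and was taken as pool 1, since the others are numbered and its passages are those of day 6 pool 1, so blocked values are given there too. Day 6 pool 2 has those passages as well, unlike ES pool 2. Also, the title and description of 1 day 10 bFGF array disagree on its pool (2 against 1, with the title's used). Between day 10 and day 6 the correlations were 0.0749, 0.337 and 0.187 for pools 1, 2 and 3. Those pools were not taken as pairs, and blocked results at that step are given beside the main ones. Members described on every array are those past a test. Up to 4 genes per pathway list and comparison are named, those with the largest absolute log2 change among those past the test. PORCN and TCF7 were not analysed. The members and lists were chosen with earlier results of these data known.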

Additional observations from a re-analysis of the deposited data

How the results depend on the processing

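Of 29 member calls, 18 were kept in every alternative, and none of the 498 alternative values reversed its direction. Counts of members called moved by more than 1.5 times in some settings, and the cause was not tested. The share of all genes called is not given for most of these settings. Whether members moved more than other genes is therefore not shown. At day 10 against day 6, where the count was 4, it was 7 with a pseudocount of 64, 7 after quantile scaling, 7 among the upper 60% of genes by signal, 2 in a fit of the compared groups alone and 2 without pool 2 of all groups. At day 17 against day 10, where it was 2, it was 1 with a pseudocount of 1, 1 after quantile scaling, 0 in a fit of the compared groups alone, 0 without pool 2 of the neuroepithelial groups and 0 without pool 2 of all groups. For bFGF at day 17, where it was 0, it was 1 with a pseudocount of 64, 1 after quantile scaling and 2 with a trended and robust prior. For bFGF averaged over both days, where it was 1, it was 0 with a pseudocount of 1, 2 with a pseudocount of 64, 0 in a fit of the compared groups alone, 0 with averaged probe sets, 0 without pool 2 of the neuroepithelial groups and 0 without pool 2 of all groups. Leaving out 1 array at a time gave 6 to 8 members at day 6 against ES cells, 3 to 5 at day 10 against day 6, 0 to 1 at day 17 against day 10, 13 to 15 at day 17 against ES cells, 0 to 0 for bFGF at either day, 0 to 1 for bFGF averaged, and 15 to 17 for any difference.

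With the pool number as a fixed or a random replicate block, the count at day 10 against day 6 was 11 or 10 (DKK1 and FZD7 lower among the 11), for bFGF at day 17 2 or 2, and for bFGF averaged 1 or 2. It was 11 at day 6 against ES cells, 3 at day 17 against day 10 and 15 at day 17 against ES cells in both, and 20 or 19 for any difference. Over all genes the fixed block called 1454 at day 6 against ES cells (762 without it), 2512 at day 10 against day 6 (1259), 754 at day 17 against day 10 (393), 34 for bFGF at day 10 (17), 120 for bFGF at day 17 (67), 142 for bFGF averaged (65) and 6059 for any difference (3817). The count of all genes under the fixed block at day 17 against ES cells is not given. A fit of the compared groups alone called 34 genes at day 17 against day 10, and 0 for bFGF at either day. Signals near background were not separated from absence, which limits the 15 members under 100 on all arrays.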
